A study of Mus musculus with 82 samples.

Results

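Among the heterochromatin protein HP1γ peaks of mouse embryonic stem cells, 309 stood alone and lay beside the end of a protein-coding gene. They were chosen by position: a peak on chromosomes 1 to 19 with no other HP1γ peak within 10 kb and any part within 5 kb of either end of a protein-coding gene. They made up 309 of the 1391 isolated peaks on these chromosomes, of 1994 HP1γ peaks there and of 2047 in the whole list. The list is pooled over 3 HP1γ ChIP replicates in Adnp knockout cells and 3 in wild-type cells, both carrying a FlagAvi tag on Cbx3, the gene of HP1γ, and it is titled as peaks without the motif of Adnp, a zinc finger and homeodomain protein. Peaks are named after the knockout, so it cannot be said for any 1 of them whether wild-type cells had it too. A second list holds 15026 Adnp peaks, pooled over 3 replicates of cells with a FlagAvi tag on Adnp and no knockout. All cells were of a hybrid background between strains 129 and C57BL/6 and were grown untreated in 2i medium with LIF, which holds them in the pluripotent state. The tag carries biotin, and tagged protein with its DNA was captured on streptavidin beads after crosslinking. Since both lists are pooled, no value has a replicate error, and since neither gives read counts, the depth is unknown. Peaks and genes are not replicates, so intervals cover counting error only and tests describe these lists.

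HP1 proteins bind histone H3 methylated at lysine 9 through their chromodomain and are best known for compacting silent chromatin. They also join Adnp and the remodeller Chd4 in a complex called ChAHP, which reaches DNA through Adnp. Several classes of genes carry silencing marks at their starts in embryonic stem cells. Germ cell genes are held silent by a variant Polycomb complex that contains E2f6 and Mga and by DNA methylation. Through Zfp57 and Trim28, imprinted control regions keep lysine 9 methylation on the parental copy that carries DNA methylation. In human cells the last exons of zinc finger genes of the KRAB family carry lysine 9 methylation.

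Sequences of gene starts were taken from RefSeq on GRCm38.p6, each window running from 250 bases before a start to 50 after it. In all, 72 of the 309 peaks (23.3%) overlapped such a window, and these windows belonged to 77 coding genes. Of these, 11 are printed 5′ to 3′ as examples of the germ cell, imprinted and chromatin genes that the results turn on, 9 that hold at least 1 of the words searched and 2 that hold none, with capitals for 3 words searched on both strands: GCGGGA (the core of E2F sites), CACGTG (the E-box of Mga and Max) and TGCCGC (the word of Zfp57). The germ cell genes are Hormad1, a protein of the meiotic chromosome axis, Bhmg1, which is Meiosin, a driver of meiotic entry, Dazl, a germ cell RNA-binding protein, Spata22, which acts in meiotic recombination, Fkbp6, an immunophilin needed for meiosis in the male, and Tdrkh, a Tudor domain protein. Nap1l5, Mest, Nnat and Mkrn3 are imprinted, and E2f6 encodes the repressor itself.
Hormad1 (chr3:95559427-95559726, plus strand): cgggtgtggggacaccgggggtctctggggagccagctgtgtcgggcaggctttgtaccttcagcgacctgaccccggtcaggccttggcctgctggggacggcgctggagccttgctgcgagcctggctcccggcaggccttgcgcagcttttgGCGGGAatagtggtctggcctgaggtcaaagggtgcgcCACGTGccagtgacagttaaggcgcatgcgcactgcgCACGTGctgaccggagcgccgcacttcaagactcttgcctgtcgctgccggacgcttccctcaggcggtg
Bhmg1 (chr7:19118295-19118594, minus strand): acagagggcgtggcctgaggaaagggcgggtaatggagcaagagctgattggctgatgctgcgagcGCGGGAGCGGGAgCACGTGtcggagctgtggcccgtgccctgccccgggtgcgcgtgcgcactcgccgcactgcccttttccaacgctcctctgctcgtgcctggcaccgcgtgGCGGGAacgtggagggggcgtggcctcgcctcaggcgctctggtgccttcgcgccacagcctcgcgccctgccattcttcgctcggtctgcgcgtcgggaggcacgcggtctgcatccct
Dazl (chr17:50293571-50293870, minus strand): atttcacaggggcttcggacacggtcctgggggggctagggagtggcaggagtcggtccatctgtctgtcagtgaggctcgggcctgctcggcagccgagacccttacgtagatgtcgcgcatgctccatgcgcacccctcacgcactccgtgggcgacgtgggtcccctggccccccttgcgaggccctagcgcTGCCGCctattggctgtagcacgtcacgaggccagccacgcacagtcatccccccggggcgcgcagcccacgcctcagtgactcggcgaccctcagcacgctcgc
Spata22 (chr11:73329491-73329790, plus strand): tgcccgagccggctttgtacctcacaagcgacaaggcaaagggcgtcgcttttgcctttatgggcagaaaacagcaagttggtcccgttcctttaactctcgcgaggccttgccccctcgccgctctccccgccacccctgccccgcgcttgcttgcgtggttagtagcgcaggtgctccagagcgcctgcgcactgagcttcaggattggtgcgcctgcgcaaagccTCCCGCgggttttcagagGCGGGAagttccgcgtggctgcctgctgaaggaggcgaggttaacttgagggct
Fkbp6 (chr5:135349995-135350294, minus strand): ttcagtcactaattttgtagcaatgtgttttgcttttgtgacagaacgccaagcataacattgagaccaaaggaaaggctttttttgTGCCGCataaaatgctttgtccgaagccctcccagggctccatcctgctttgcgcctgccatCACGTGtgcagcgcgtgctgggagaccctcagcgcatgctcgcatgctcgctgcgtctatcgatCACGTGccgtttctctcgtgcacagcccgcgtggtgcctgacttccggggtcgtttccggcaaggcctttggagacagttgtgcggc
Tdrkh (chr3:94412994-94413293, plus strand): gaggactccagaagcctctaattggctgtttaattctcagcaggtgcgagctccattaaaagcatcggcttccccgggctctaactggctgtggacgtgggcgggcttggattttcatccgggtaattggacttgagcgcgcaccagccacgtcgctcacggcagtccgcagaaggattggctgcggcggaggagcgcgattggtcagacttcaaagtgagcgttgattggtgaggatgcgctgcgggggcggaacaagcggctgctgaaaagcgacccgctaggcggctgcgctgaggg
Nap1l5 (chr6:58907077-58907376, minus strand): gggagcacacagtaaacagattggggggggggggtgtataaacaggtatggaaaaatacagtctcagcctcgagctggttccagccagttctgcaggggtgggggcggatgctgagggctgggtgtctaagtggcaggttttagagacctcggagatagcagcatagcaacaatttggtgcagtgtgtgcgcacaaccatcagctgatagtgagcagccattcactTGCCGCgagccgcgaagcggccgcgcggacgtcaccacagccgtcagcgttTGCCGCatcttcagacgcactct
Mest (chr6:30737800-30738099, plus strand): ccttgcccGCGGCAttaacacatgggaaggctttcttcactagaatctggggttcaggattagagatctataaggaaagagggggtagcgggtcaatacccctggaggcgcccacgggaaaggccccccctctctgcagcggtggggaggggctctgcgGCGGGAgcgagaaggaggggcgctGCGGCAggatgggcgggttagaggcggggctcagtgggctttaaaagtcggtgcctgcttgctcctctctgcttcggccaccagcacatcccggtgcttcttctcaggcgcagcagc
Nnat (chr2:157559828-157560127, plus strand): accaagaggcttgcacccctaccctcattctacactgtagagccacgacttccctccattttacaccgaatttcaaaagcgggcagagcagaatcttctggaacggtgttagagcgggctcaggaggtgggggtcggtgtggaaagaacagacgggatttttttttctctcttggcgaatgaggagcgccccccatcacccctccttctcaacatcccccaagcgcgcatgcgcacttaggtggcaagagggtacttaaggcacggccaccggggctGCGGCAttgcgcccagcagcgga
Mkrn3 (chr7:62420104-62420403, minus strand): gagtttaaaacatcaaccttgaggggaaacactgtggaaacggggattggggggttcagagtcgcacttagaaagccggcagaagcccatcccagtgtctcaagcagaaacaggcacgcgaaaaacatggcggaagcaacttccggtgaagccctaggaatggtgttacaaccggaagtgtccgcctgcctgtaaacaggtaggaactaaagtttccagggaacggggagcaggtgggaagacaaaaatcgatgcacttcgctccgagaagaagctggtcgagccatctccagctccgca
E2f6 (chr12:16810715-16811014, plus strand): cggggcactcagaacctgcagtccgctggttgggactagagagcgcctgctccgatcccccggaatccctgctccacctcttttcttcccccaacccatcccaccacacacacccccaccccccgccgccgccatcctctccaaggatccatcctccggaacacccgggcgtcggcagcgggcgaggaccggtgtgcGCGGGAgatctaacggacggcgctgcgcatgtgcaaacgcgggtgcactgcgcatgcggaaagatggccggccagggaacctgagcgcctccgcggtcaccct
The Hormad1 window held 1 GCGGGA and 2 CACGTG, the Bhmg1 window held 3 and 1, and the Spata22 window held 2 GCGGGA. The Fkbp6 window held 2 CACGTG and 1 TGCCGC. Dazl had neither the E2F nor the E-box word and 1 TGCCGC, and E2f6 had 1 GCGGGA. Nap1l5 and Mest held 2 TGCCGC each and Nnat held 1, while Mest also had 1 GCGGGA. None of the 3 words was in the overlapped windows of Tdrkh, Sycp2 and Tdrd12 among germ cell genes, or of Mkrn3, Zrsr1 and Commd1 among imprinted genes. The peak covered all 300 bases of the Nap1l5, Mest, Nnat and Mkrn3 windows. Of the other windows it covered 272 bases at Bhmg1, 265 at Spata22, 242 at Fkbp6, 209 at Dazl, 137 at Tdrkh, 119 at Hormad1 and 41 at E2f6. Words were searched over the whole window, and the GCGGGA of Hormad1 and of E2f6 lay outside the part under the peak.

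The rule placed every peak within 5 kb of a gene end, and the distances and kinds of end inside that window were as follows. The nearest coding end was a gene start for 162 peaks, the other end for 99, and an end of unknown strand for 48. Of the 309 peaks, 50 covered an end, 112 lay within 500 bp of one and 144 within 1 kb. Peaks nearest a start had a median distance of 443 bp (quartiles 0.5 and 2689 bp), and 41 of them covered it. Peaks nearest the other end had a median of 1809 bp (quartiles 992.5 and 3226 bp), and 5 of them covered it. Beyond 1 kb, 66 peaks were nearest a start and 73 nearest the other end.

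**Figure D1:**
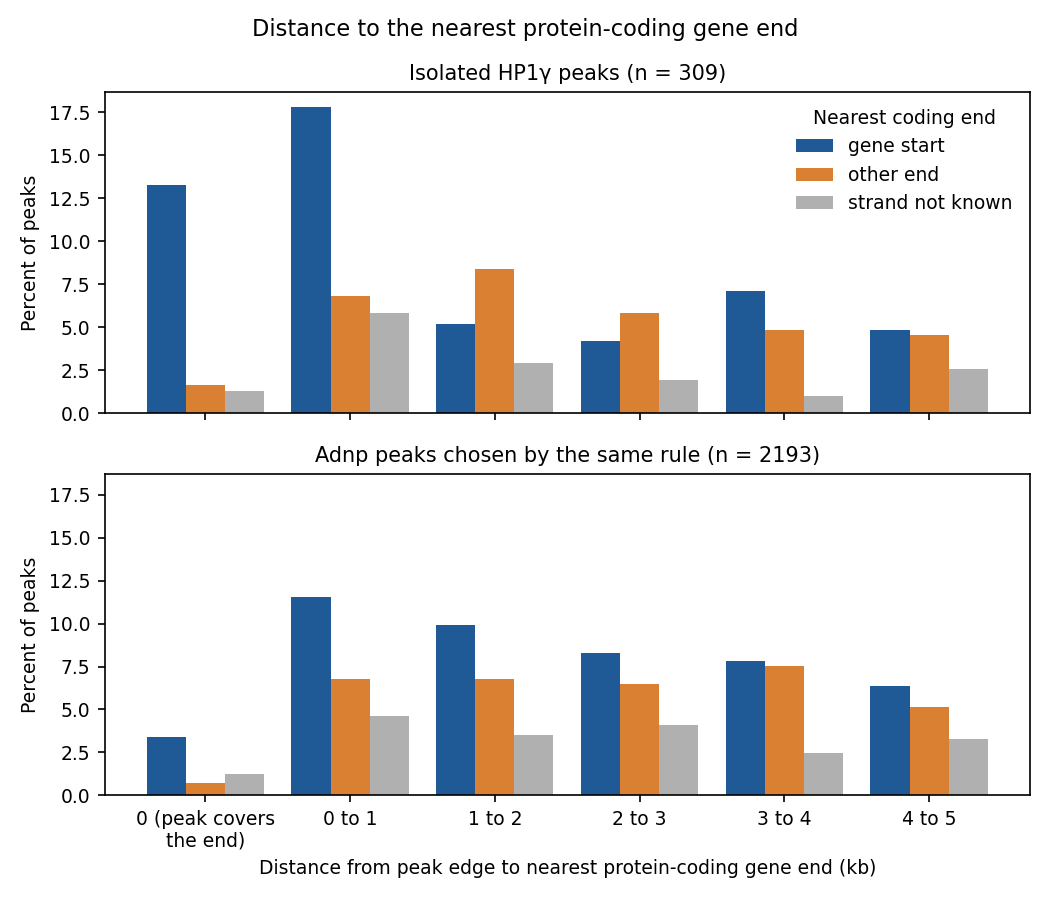
Percent of peaks (vertical axis) by distance in kb from the peak's edge to the nearest protein-coding gene end (horizontal axis), for the 309 isolated HP1γ peaks above and the 2193 Adnp peaks chosen by the same rule below; bars separate gene starts, other ends and ends of unknown strand. The HP1γ peaks are highest at starts, with 13.3% covering a start and a further 17.8% within 1 kb. Adnp peaks are also highest near starts but spread more evenly. Of these, 3.42% cover a start, a further 11.5% lie within 1 kb of one and 6.38% in the last kb of the window.

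A set of Adnp peaks chosen by the same rule from the Adnp list, 2193 in number, gave the comparison for distance. Within 1 kb of a coding end lay 46.6% of the HP1γ peaks (144 of 309, 95% Wilson interval 41.1% to 52.2%) and 28.3% of the Adnp peaks (621 of 2193, 26.5% to 30.2%). The odds ratio was 2.21, with an adjusted p of 1.28e-09 in Fisher's exact test (two-sided, p-values adjusted by Benjamini and Hochberg's method over 5 peak comparisons). The rule cut both sets at 5 kb, so only the spread inside that limit was compared. It also kept only isolated peaks, 1391 of 1994 for HP1γ and 8252 from the list of 15026 for Adnp. With isolation distances of 5 kb and 20 kb the odds ratios were 2.24 and 2.17. Peaks were not compared without this filter. Some sites can stand in both sets, since 70 of the 309 HP1γ peaks overlapped an Adnp peak. Without those peaks, a choice made after the data were seen, the HP1γ share was 49.0% (odds ratio 2.43). Over the whole window the nearest end was a start in 62.1% of HP1γ peaks with a known strand (162 of 261, 56.0% to 67.7%) and in 58.6% of Adnp peaks (1039 of 1772, 56.3% to 60.9%), a difference that did not pass (odds ratio 1.15, adjusted p = 0.390, same exact test). Taking only peaks within 1 kb, a choice made after the data were seen, the shares were 78.7% of HP1γ peaks (96 of 122) and 66.5% of Adnp peaks (328 of 493; odds ratio 1.86, unadjusted p = 0.00883, same exact test). Some part of the peak lay inside a coding gene for 56.6% of HP1γ peaks (175 of 309, 51.1% to 62.0%) and 50.2% of Adnp peaks (1101 of 2193, 48.1% to 52.3%; odds ratio 1.30, adjusted p = 0.0644, same exact test).

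A gene can have more starts than its outermost one. Of the 305 HP1γ peaks on chromosomes with listed starts, 106 (34.8%, 29.6% to 40.3%) lay within 1 kb of any listed coding start, and 45 covered one. Of 2138 such Adnp peaks it was 321 (15.0%, 13.6% to 16.6%). This count was added after the data were seen and was not tested. Some stretches of these chromosomes hold no listed start. The nearest one was 1.34e+07 bp from the peak at Mrpl15 and 6.82e+06 bp from that at Pip4p2. Peaks there stayed in the count, which can lower the shares. For 7 HP1γ peaks the listed start was nearer than 1 kb although every gene end was farther away. Mest, Fkbp6 and Spata22 were of this kind, since their peaks lay 3381, 1573 and 2966 bp from the outermost start but covered a listed start farther in.

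Most peaks had a single coding gene in reach. There were 241 peaks near 1 gene, 63 near 2 and 5 near 3, which gave 381 genes in all. In 9 cases 1 peak lay within 1 kb of the starts of 2 genes, and in all 9 the genes ran on opposite strands. Wdhd1, a replication factor, and Socs4, a suppressor of cytokine signalling, shared the peak at chr14:47276740-47277046, which covered both starts. Lzic and Nmnat1, the gene of a nuclear enzyme of NAD synthesis, shared a peak of 258 bp on chromosome 4 that also covered both starts. Fyttd1, an mRNA export factor, and Rubcn, a regulator of autophagy, shared one of 410 bp on chromosome 16. The other pairs were Cnppd1 with Retreg2, Klhl28 with Togaram1, Abca3 with Abca17, Vti1a with Zdhhc6, B3galt6 with Sdf4, and 4930432K21Rik with Cc2d1a.

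By function, imprinted and germ cell genes had the highest shares near these peaks. Of all 20560 coding genes of chromosomes 1 to 19, 381 (1.85%) had an isolated HP1γ peak within 5 kb of an end and 160 (0.778%) had one within 1 kb. Of 66 listed imprinted genes it was 8 (12.1%, 95% Wilson interval 6.27% to 22.1%), and of 172 germ cell genes 19 (11.0%, 7.19% to 16.6%). Chromatin regulators followed with 9 of 145 (6.21%, 3.30% to 11.4%) and zinc finger genes with 18 of 467 (3.85%, 2.45% to 6.01%). Shares nearer that of all genes were seen for transmembrane protein genes of the Tmem series (7 of 231, 3.03%), the ubiquitin system (7 of 370, 1.89%), ribosomal proteins (3 of 170, 1.76%) and solute carriers (6 of 376, 1.60%). Genes without a proper name had 20 of 1418 (1.41%), and receptors for odours, pheromones and taste had 9 of 1492 (0.603%). These lists were compared with the share of all genes by description alone, without a test.

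**Figure D2:**
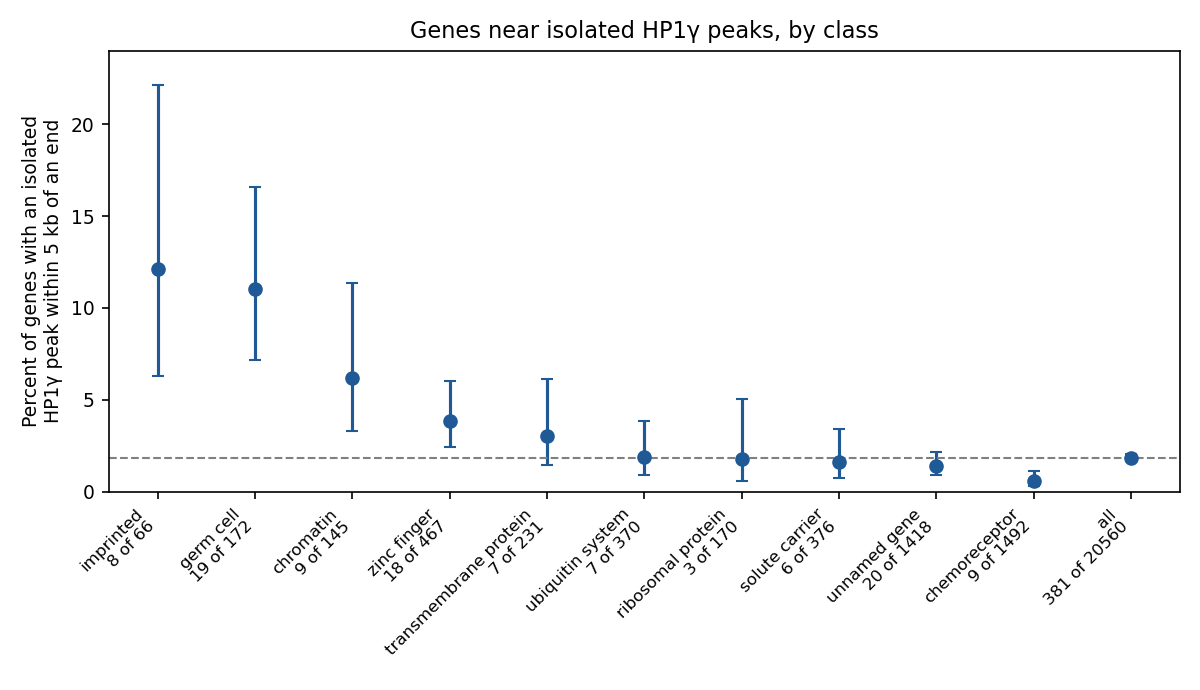
Percent of the coding genes of each class that have an isolated HP1γ peak within 5 kb of an end (points), with 95% Wilson intervals (bars); the counts stand under each class, all coding genes are at the right and the dashed line marks their share of 1.85%. Imprinted (12.1%) and germ cell genes (11.0%) are highest and the chemoreceptors (0.603%) lowest.

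The peaks left out for having a neighbour gave a second set of counts. Of the 603 HP1γ peaks with another within 10 kb, 110 lay within 5 kb of a coding end, beside 0.282% of all genes. They lay beside 8 zinc finger genes (1.71%), 3 imprinted genes (4.55%) and 0 of the 172 germ cell genes. With only 58 of 20560 genes beside such peaks, 0 of 172 is near the share of all genes. Adnp peaks chosen by the rule lay beside 13.1% of all genes, beside 31 chromatin genes (21.4%), 34 germ cell genes (19.8%), 79 zinc finger genes (16.9%) and 5 imprinted genes (7.58%).

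Germ cell genes near these peaks mostly had the peak at or near a start. Of the 19, the nearest end was a start for 15, the other end for 2 and of unknown strand for 2. Within 1 kb lay 12, of which 11 were at a start and 1, Tex15, at an end of unknown strand. Among all 381 genes near a peak, the nearest end was a start for 194, and for 107 it was a start within 1 kb. The peak covered the outermost start of Hormad1 (chr3:95559608-95559806), Tdrkh (chr3:94413157-94413542), Bhmg1 (chr7:19118197-19118566) and Dazl (chr17:50292957-50293779). Tdrkh is a Tudor domain protein that acts in the trimming of piRNAs, the small RNAs that silence transposons in germ cells.
Other piRNA genes were Mael, with the peak 73 bp inside its start, Tdrd12, with the peak 111 bp inside, and Tex15, which also serves meiotic recombination, with the peak 19 bp inside an end of unknown strand. The meiotic genes included Sycp2, an axial part of the synaptonemal complex, with the peak 97 bp inside its start, and 4930432K21Rik, which carries the synonym Brme1 and acts in recombination, with the peak 81 bp inside. Tcfl5, a transcription factor of the testis, had its peak 326 bp before the start. Boll, a relative of Dazl, had its peak 523 bp inside, and Acrv1, an acrosomal protein, had its peak 977 bp inside.
The remaining 7 lay farther away. Fkbp6 and Spata22 are described above. Kash5, which ties meiotic telomeres to the cytoskeleton, had the peak 1321 bp beyond its other end, where the peak covered the other end of Pth2. The peak of M1ap lay 3209 bp beyond its other end and 23 bp from Dok1, and that of Adad2 lay 3528 bp before its start. Catsperg1 and Catsperg2, subunits of the calcium channel of sperm, had peaks at 4546 and 4218 bp outside the gene. For these last 5 genes the peak was over 1 kb from either end.
Some genes outside the list are also known from the testis, and they were picked after their positions were seen. The peak at D1Pas1, a helicase of the spermatid, lay 229 bp from its start, that of Ddx43 111 bp and that of Shcbp1l 222 bp. Others were not close to a start. The peaks of Hsd17b3, Sox30 and Actrt2 were nearest the other end, at 1490, 3191 and 4661 bp. That of Adam34 lay 2702 bp from its start. Such genes were not counted as a set, so these examples give no share. Stag3, the meiotic cohesin subunit, is on the list but was not counted. It had a listed start window covered over all 300 bases by the peak at chr5:138280177-138280640, while its gene ends lie beyond 5 kb, and the nearest coding end is the start of Gpc2 at 151 bp.

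Peaks at imprinted genes were wide. The 8 genes shared 7 peaks, because Nnat lies inside Blcap and 1 peak served both. Widths were 2020 bp at Mest, 1076 at Nap1l5, 1019 at Zrsr1, 995 at Klf14, 870 at Nnat, 596 at Plagl1 and 555 at Mkrn3. All 7 were above the median of 311 bp for the 309 peaks (quartiles 239 and 450 bp), and 3 of the 7 peaks of 1000 bp or more were here. The peak covered the start of Nnat, which encodes a brain proteolipid, of Mkrn3, a ubiquitin ligase linked to the timing of puberty, and of Plagl1, a growth-restraining transcription factor. It also covered the starts of Nap1l5 and Zrsr1, which are retrogenes inside introns of other genes. The Zrsr1 peak (chr11:22971939-22972957) also overlapped 141 bases of a start window of Commd1, its host.
At Mest, a gene expressed from the paternal copy, the peak (chr6:30736887-30738906) covered 2 listed starts inside the gene and not the outermost one. Klf14 on the same chromosome had its peak 599 bp inside an end of unknown strand. Of the 7 peaks, 1 overlapped an Adnp peak, at Mkrn3, where the authors' Adnp score was 13.02.

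**Figure D3:**
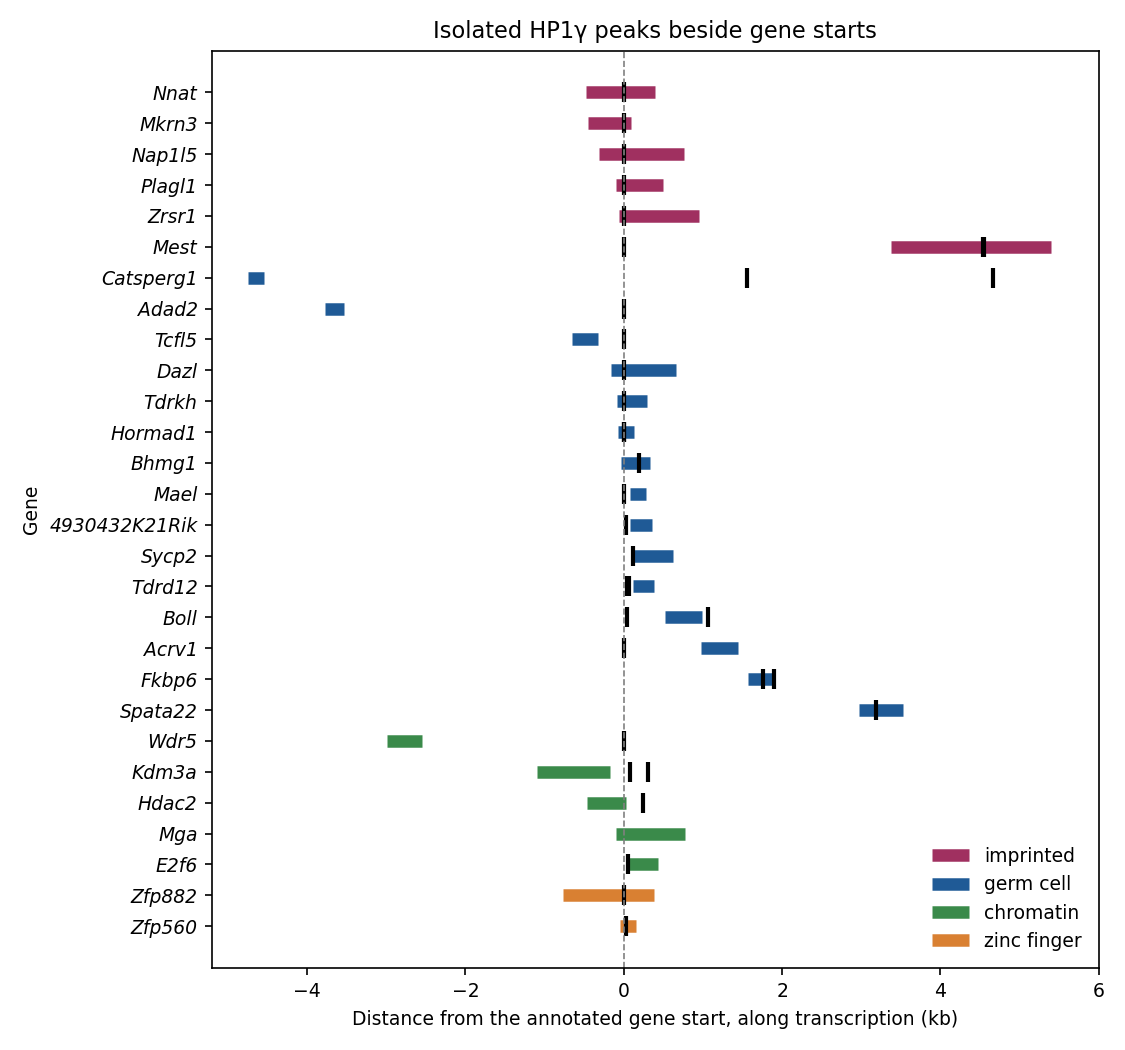
Position of the isolated HP1γ peak (bars) relative to the annotated outermost start of each gene (dashed line, 0 kb; positive values run along transcription), for imprinted, germ cell and chromatin genes and the 2 nearest zinc finger genes whose nearest end is a start; black ticks are starts listed by RefSeq. The bars of most imprinted and germ cell genes reach 0 or lie just inside it, and those of Mest, Fkbp6 and Spata22 lie farther in, over a listed start.

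The 9 chromatin regulators near the peaks included E2f6 and Mga, parts of the complex that represses germ cell genes. The parts of that complex were not counted as a set, so these examples give no share. The peak at E2f6 (chr12:16810974-16811342) lay 65 bp inside the start. At Mga the peak was 869 bp wide (chr2:119872409-119873277) and covered the outermost start, though the nearest start with a listed window was 23951 bp away. Hdac2, a histone deacetylase, also had its start covered, by a peak of 505 bp.
Kdm3a, a demethylase of lysine 9 of histone H3, had a peak of 927 bp that ended 170 bp before its start. Chd2, a chromatin remodeller, had its peak 556 bp outside an end of unknown strand, where an Adnp peak with a score of 74.0 overlapped it. Bmi1, a Polycomb subunit, had a peak 562 bp beyond its other end, where it covered the other end of Gm46725. Prmt5, an arginine methyltransferase, and Mbd3, a subunit of the NuRD complex, had theirs 2124 and 2646 bp inside the gene, counted from the other end. Wdr5, shared by histone methyltransferases, had 2 peaks, 2544 bp before the start and 3818 bp beyond the other end, and was the 1 gene with more than 1 isolated peak.

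Zinc finger genes were divided between starts and other ends. For the 18 genes the nearest end was a start for 6, the other end for 8 and of unknown strand for 4, with a median distance of 1657 bp, against 1367 bp for the 381 genes. All 381 genes had 194 at a start, 130 at the other end and 57 unknown. The peak covered the start of Zfp560 (211 bp wide) and of Zfp882 (1151 bp wide, chr8:71907835-71908985). At the other end, the peak lay inside the gene at Zfp607b (70 bp from the end), Zfp553 (836 bp), Zfp936 (1053 bp) and Zfp180 (1626 bp). The Zfp553 peak (chr7:127234928-127237361) was the widest of all 309, with 2434 bp.
Beyond the other end lay the peaks of Zfp964 (1688 bp), Zfp933 (1916 bp) and Zfp938 (2141 bp). The ends of Zfp707, Zfp575 and Zfp706, at 125, 412 and 514 bp from their peaks, were of unknown strand. The other 6 genes, Zfp709, Zfp36, Zfp382, Zfp169, Zbtb39 and Zscan5b, lay 3113 to 4794 bp away. By their symbols, 17 of the 18 belonged to the Zfp and Zscan series, and Zbtb39 was the other one.

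Among genes outside the imprinted, germ cell, chromatin and zinc finger classes, the 20 with a peak centre nearest to an end are given here. The peak covered the start of Eif4a2 and Eif5a2, which encode translation factors, and of Mrpl3, a protein of the mitochondrial ribosome. It covered that of Cdc16, a subunit of the anaphase-promoting complex, Alkbh3, a DNA repair demethylase, and Dhx40, a helicase. Acbd6, Btbd8, Zranb2, Dhrs13, Ccdc57 and Xxylt1 also had their start covered, as did the shared starts of Socs4, Wdhd1, Lzic, Nmnat1 and Fyttd1 given above. At Champ1, which guides chromosome alignment, and Wdfy1 the covered end was of unknown strand, and at 2610524H06Rik it was the other end. The centres of these 20 genes' peaks lay within 66 bp of the gene end, and the widths ran from 217 bp at Ccdc57 to 602 bp at Dhx40. An Adnp peak overlapped 1 of these peaks, at Dhrs13, with a score of 19.9.

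Windows at these starts held more CG pairs at the median than those of all coding genes, which was not tested. Genes were taken by their outermost start, each with the listed window nearest to it, so Mest, Fkbp6, Spata22 and Stag3 are not among them, and the window of Mga is not at its peak. For the 108 genes with an outermost start within 1 kb of a peak, the median was 24 CG pairs in 300 bases (quartiles 17.8 and 31), against 14 (4 and 25) for 16457 coding genes with a listed start. GCGGGA occurred in 45 of the 108 windows (41.7%), against 26.4% of all windows, and the longer form TTCCCGC, which contains its reverse complement, in 14 (12.96%), against 6.14%. CACGTG occurred in 19 (17.6%), against 7.97%, and TGCCGC in 24 (22.2%), against 14.0%. Each word holds a CG pair itself, and the part of CG content in these shares was not tested.
The windows that a peak overlaps, 1 for each of 77 genes (the one with the largest overlap), were counted after the data were seen, with GCGGGA in 30 (39.0%), CACGTG in 15 (19.5%), TGCCGC in 19 (24.7%) and none of the 3 in 30.
Of the 10 overlapped windows of germ cell genes, 5 held GCGGGA (Bhmg1, Boll, Hormad1, Spata22 and Stag3) and 4 held CACGTG (Bhmg1, Fkbp6, Hormad1 and Stag3), so 3 held both. All words were counted over the whole window, and the GCGGGA of Boll and of Hormad1 lay outside the part under the peak. Of 142 germ cell windows in all, 32.4% held GCGGGA, 21.8% held CACGTG and 9.86% held both. Both words stood together in 10.4% of the 77 overlapped windows and in 2.82% of all coding windows. With 10 overlapped germ cell windows, these shares were not tested. Of the 7 overlapped windows of imprinted genes, 4 held TGCCGC (Mest, Nap1l5, Nnat and Plagl1), against 12 of 54 imprinted windows in all (22.2%). The 2 overlapped windows of zinc finger genes, Zfp560 and Zfp882, held none of these words. A match in a window is a description of its letters and shows no binding.

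Peaks near coding ends overlapped Adnp peaks more often than isolated HP1γ peaks elsewhere did. An Adnp peak was overlapped by at least 1 bp in 70 of the 309 peaks (22.7%, 18.3% to 27.6%) and in 154 of the 1082 other isolated HP1γ peaks (14.2%, 12.3% to 16.4%). The odds ratio was 1.76, with an adjusted p of 0.00149 in the same exact test. Peaks within a run overlapped in 13.1% of 603 cases. The call did not hold for peaks within 2 kb of an end (odds ratio 1.26, adjusted p = 0.354, same exact test) or, as a choice made after the data were seen, with both sets restricted to peaks inside coding genes (odds ratio 1.53, unadjusted p = 0.0750, exact test). Within the 309, it was 18.8% of the 144 peaks within 1 kb and 26.1% of the 165 farther out, without a test.
The highest authors' Adnp score under a peak was 259 at Rnf220, a ubiquitin ligase, whose peak lay 4809 bp from its start. Vti1a and Zdhhc6 followed with 200.1, Gpcpd1 with 162, Gtf3a, a transcription factor of ribosomal 5S RNA genes, with 148, Boll with 86.3 and Lgals7 with 84.5. Germ cell genes had an Adnp peak on 7 of their 19 peaks, among them Tdrd12 with a score of 40.9, Sycp2 with 27.4, Bhmg1 with 16.2, Adad2 with 12.7, Spata22 with 6.86 and Mael with 4.14. The median distance to the nearest Adnp peak was 15924 bp over the 309, and 139 had one within 10 kb.

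**Figure D4:**
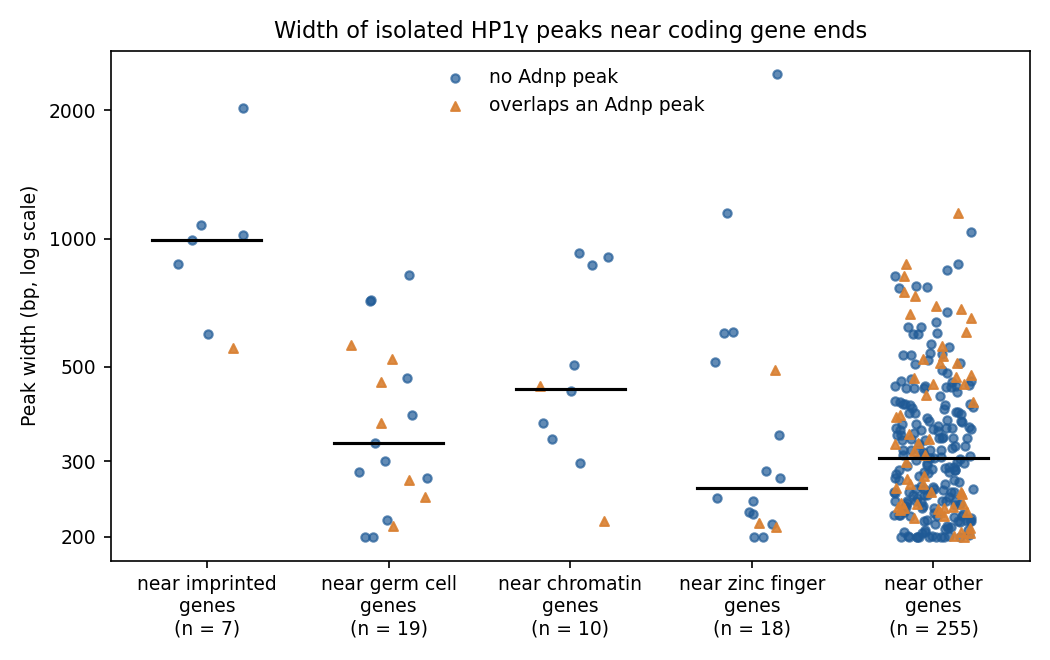
Width of each isolated HP1γ peak in bp (log scale) by the class of the gene beside it, with orange triangles for peaks that overlap an Adnp peak, blue circles for the others and a black line at the median. The 7 peaks near imprinted genes lie between 555 and 2020 bp, against a median of 331 bp near germ cell genes, 444.5 bp near chromatin genes, 260.5 bp near zinc finger genes and 306 bp near other genes.

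No difference in width passed the test. A width of 400 bp or more was reached by 31.4% of them (97 of 309, 26.5% to 36.8%) and by 29.5% of the other isolated HP1γ peaks (319 of 1082, 26.8% to 32.3%; odds ratio 1.09, adjusted p = 0.527, same exact test), and the interval of each share holds the other share. Their median was 311 bp, against 305 bp for the others. The 5 widest were those at Zfp553, Mest, Zfp882, Unc13a, a synaptic vesicle priming factor (1147 bp), and Nap1l5. Chromosome 11 held most, with 30, which was 37.0% of its isolated peaks, while chromosome 14 gave 8 of 94 (8.51%). A long noncoding RNA gene was overlapped by 35 of the 309 (11.3%).

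**Figure D5:**
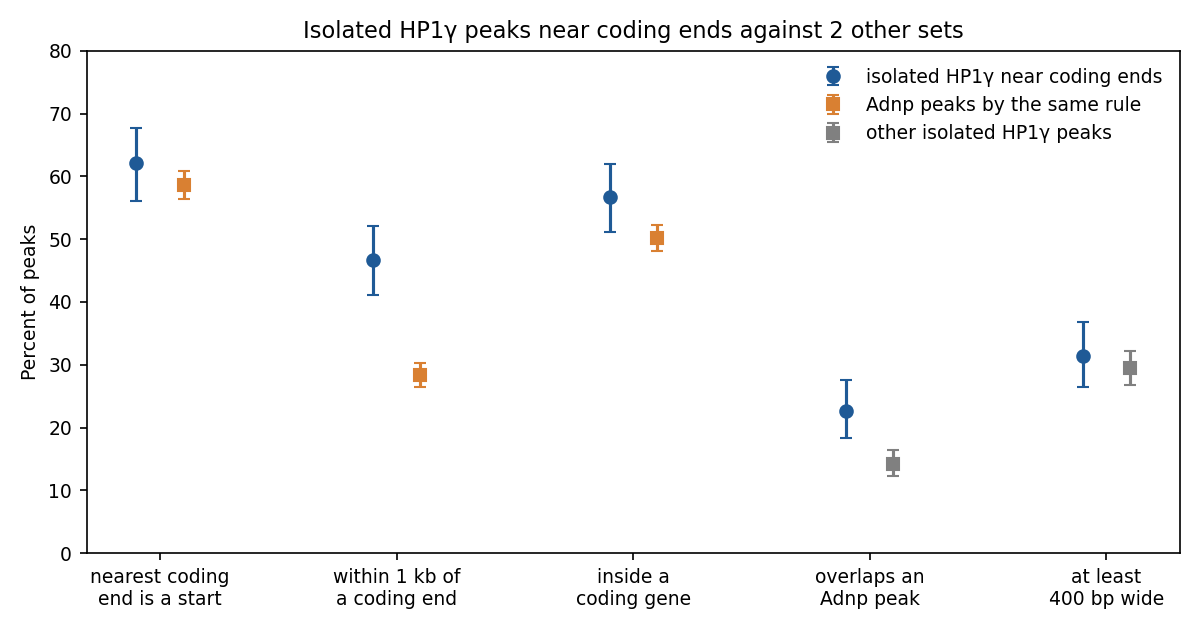
Percent of peaks with each feature (points) and 95% Wilson intervals (bars): blue circles are the 309 isolated HP1γ peaks near coding ends, orange squares the Adnp peaks by the same rule and grey squares the other isolated HP1γ peaks. The shares within 1 kb of an end (46.6% against 28.3%) and with an Adnp peak (22.7% against 14.2%) passed the exact test and the other 3 comparisons did not.

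Peaks at the limits of the rule had the following distances. Just inside 5 kb lay, among others, the peaks at Rnf19b (4932 bp) and Tex2 (4922 bp), and just outside it those at Zfp65 (5034 bp), Sox13 (5037 bp) and Il22ra1 (5040 bp). The isolated peaks with the nearest HP1γ neighbour were at Actr10 (10734 bp), Pth2 (11179 bp) and Bcas2 (12003 bp), and a peak at Rnf216 was left out with a neighbour at 9905 bp.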

How the data were processed

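The authors pooled replicates before they made the 2 peak lists, which hold starts, ends and names. The submitters' processing notes name MACS2, edgeR, STAR 2.5.0a, Bowtie 1.0.0 and bcl2fastq 1.17, without roles, and the build mm10 (GRCm38). How MACS2 was run was not given in these sources. The score deposited by the authors for each Adnp peak (3.66 to 565) is of unstated kind, and that of every HP1γ peak is 0. Genes came from RefSeq GRCm38.p6, chromosomes 1 to 19, with starts of 3 Mb or more (105 coding genes with lower positions were left out).

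Strand came from the table of start windows, which held 80.0% of the coding genes (324 of the 381 near a peak). The gene table holds no gene descriptions, so zinc finger genes were found by symbol alone and a kinase class was not run. Listed genes were matched by symbol or unique synonym, which placed 66 of 77 imprinted, 172 of 179 germ cell and 145 of 151 chromatin genes among the coding genes used. Named genes were all listed imprinted, germ cell and chromatin genes, the 12 nearest zinc finger genes (the other 6 were added later), the 20 nearest others, and peaks at the limits, widest or with top Adnp scores. Members and lists were chosen with earlier results of these data known. Shares were compared by Fisher's exact test, two-sided, with p-values adjusted by Benjamini and Hochberg's method and a threshold of 0.05. Position finding was tested on simulated peaks. Alternatives changed the distances, windows, gene set, overlap and width. The tools were SciPy 1.17.1, NumPy 2.4.6, pandas 2.3.3, matplotlib 3.10.9 and Python 3.11.15.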

Additional observations from a re-analysis of the deposited data

How the results depend on the processing

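Of 84 alternative values, 74 kept their direction and side of the threshold, or stayed within 1.5 times for counts. Some of the 74 could not come out otherwise, as given below for chromosome X and zinc finger symbols. The higher share within 1 kb of a coding end held under all 11 alternatives run for it, with odds ratios of 1.82 to 2.73. The number of peaks was 195 with a window of 2 kb and 473 with one of 10 kb, and zinc finger genes near them numbered 11 and 31. With a window of 2 kb the share inside coding genes passed (odds ratio 1.77, adjusted p = 0.000818, Fisher's exact test) and the share on Adnp peaks did not (1.26). With a window of 10 kb the odds ratios for starts and for the inside of genes turned to 0.959 and 0.963, without passing in either setting. Added after the data were seen, starts within 1 kb of an end gave 1.86 and Adnp overlap inside coding genes alone gave 1.53. The cause of these shifts was not tested. Chromosome X added no peak, so its counts of peaks and of genes by class repeated the main ones. Zinc finger genes found by symbol alone were already those of the main setting. No paired analysis was possible because both lists are pooled over replicates, and no replicate could be left out for the same reason. The HP1γ scores are all 0, so no stricter peak threshold could be tried. Strand was unknown for 48 of the 309 peaks, which limits the counts of starts.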
